A study of Mus musculus with 6 samples.

Results

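The early growth response factors Egr1, Egr2 and Egr3 and their corepressors Nab1 and Nab2 were followed in ischemic mouse muscle with and without the receptor GPR174. These 5 genes were chosen by family and pathway from the 18089 genes of the table, with results of the same comparison already known, so their levels are given as a description and without p-values. The samples were ischemic gastrocnemius muscles of male C57BL/6 mice of 8 to 10 weeks, taken 7 days after hindlimb ischemia (HLI), which was induced by ligation of the femoral artery. There were 3 libraries from wild-type (WT) littermates and 3 from GPR174-KO (Gpr174-/Y) mice, which are deficient in this G protein-coupled receptor. No unligated limb and no other time point was analysed here, so both groups share the injury and the day.

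EGR1, EGR2 and EGR3 are zinc finger transcription factors of the immediate early class, switched on within minutes to hours by growth factors, stretch, hypoxia and antigen receptors. Their promoters are read by serum response factor (SRF) with ETS partners downstream of the ERK cascade, and their fingers read a GC-rich element. NAB1 and NAB2 do not bind DNA. They dock on an inhibitory domain of EGR1, EGR2 and EGR3 and mostly repress their targets, in part by bringing in the nucleosome remodelling and deacetylase (NuRD) complex, and both Nab genes are themselves known EGR targets. In muscle, EGR3 is needed for the muscle spindle, the stretch sensor, EGR1 and EGR2 act in tendon, EGR2 drives myelination in Schwann cells, and EGR2 and EGR3 restrain T cell activation. The study followed EGR1 as a candidate regulator of Areg, which encodes the EGF receptor ligand amphiregulin, in regulatory T cells.

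Promoter sequence is shown first because the pathway is a loop of DNA-binding factors and corepressors that are also targets. RefSeq promoter windows of build GRCm38.p6, 250 bases before to 50 bases after each start, were searched on both strands. The table held 5 windows for Egr2, 1 each for Nab1, Nab2, Egr4 and Areg. Egr1 and Egr3 are named only. The files themselves use build GRCm39, and no position was carried between the builds. The EGR element GCGTGGGCG was found in 0.612% of all 32851 windows and its looser form GCGNGGGCG, which includes it, in 5.55%. The Nab1 window held GCGTGGGCG on both strands, beginning 141 and 109 bases before the start, and a further match to GCGNGGGCG 38 bases before it. Capitals mark these matches, and each sequence reads 5′ to 3′ on the strand of its gene, which for Nab1 and Nab2 is the minus strand:

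Nab1, chr1:52500529-52500609: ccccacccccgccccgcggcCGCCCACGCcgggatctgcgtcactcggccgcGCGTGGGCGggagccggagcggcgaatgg

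Nab1, chr1:52500458-52500506: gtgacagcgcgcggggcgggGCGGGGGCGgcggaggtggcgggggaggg

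The Nab2 window held neither form in full. It held the 8-base core GCGTGGGC on the opposite strand, 32 bases before the start. This core was added to the search after the sequences were seen, lies within GCGTGGGCG, and was found in 1.63% of all windows:

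Nab2, chr10:127666708-127666755: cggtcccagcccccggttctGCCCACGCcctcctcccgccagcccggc

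Egr2 windows held no EGR element but a CArG box, the element read by SRF, at 2 places on the plus strand of chromosome 10. A CArG box was found in 1.63% of all windows, and each of these lay 72 bases before an Egr2 start:

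Egr2, chr10:67537474-67537523: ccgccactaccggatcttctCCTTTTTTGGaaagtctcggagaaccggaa

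Egr2, chr10:67537777-67537826: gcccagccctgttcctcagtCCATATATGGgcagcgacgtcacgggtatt

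The Areg window is shown because Areg is the study's EGR1 target. The study predicted EGR1 sites in the Areg promoter with the JASPAR motif database. It tested them by chromatin immunoprecipitation and by promoter mutants in a cell line. It reported enrichment of the promoter with an EGR1 antibody and lower promoter activity when some of the sites were mutated. The search here was for exact letters, so it can miss sites that JASPAR accepts. By the study's positions, the window also ended before the predicted site downstream of the start. The Areg window held no exact match to either form of the EGR element. It did hold a full cAMP response element, TGACGTCA, 61 bases before the start, as did 1.79% of all windows:

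Areg, chr5:91139518-91139565: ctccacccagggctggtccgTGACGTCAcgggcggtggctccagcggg

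The Egr4 window held none of these motifs. A match describes letters in a window and not binding in this muscle.

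The libraries held between 18417107 and 19394505 expected counts, so that a count of 3 was worth 0.155 to 0.163 CPM, the counts scaled to a fixed library total. Levels between genes are compared as TPM, the deposited unit that accounts for length. Differences between groups are log2 fold changes from edgeR's quasi-likelihood test on counts scaled by TMM, which centres the median of the 14395 genes tested at 0.00. Under scaling by total counts that median was 0.28, so values on that scale sit higher for every gene. Genes were called at an adjusted p under 0.05, and 3891 were called higher and 3972 lower. Total-count scaling called 7303 of all genes higher and 2010 lower, and list counts under total counts are to be read beside these. Replicate 2 lay between replicates 1 and 3 in 77.1% of the 9972 genes of at least 10 CPM in WT and in 68.2% in GPR174-KO, where 3 libraries in no order would give 33.3%. Whether the 3 libraries of a group are independent was not tested, every SE and adjusted p rests on their spread, and fits on replicates 1 and 3 alone are given with the results. In whole muscle, fewer cells of a type and less RNA per cell cannot be told apart.

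All 5 genes were measured in every library, passed the low-count filter and were higher in GPR174-KO muscle, with no overlap between the groups. All 5 were called higher, against 27.0% of all genes tested, and every GPR174-KO library lay above every WT library for all 5, against 33.1% of all genes. On the TMM scale Egr3 alone also passed the study's second threshold, a log2 fold change over 1, which 3.45% of all genes did in this direction. Egr1 passed it as well under total counts (1.25), by limma on FPKM (1.18 and 1.24) and without WT replicate 1 (1.04). Since the genes were chosen with this contrast known, nothing is read from these shares.

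Egr1, the best known factor of the family, had the highest mean level of the 5 in both groups, although Nab2 lay above it in WT replicate 3. It stood at 24.9, 23.9 and 23.5 TPM in WT replicates 1 to 3 and at 58.3, 61.0 and 66.8 TPM in GPR174-KO replicates 1 to 3. The WT libraries lay close together, and all GPR174-KO libraries lay far above them. On the TMM scale Egr1 was 42.7 ± 3.34 CPM (SD, n = 3) in WT and 83.6 ± 3 CPM in GPR174-KO, a log2 fold change of 0.97 ± 0.07 (SE), or 1.96-fold. Of all genes tested, 3.97% had a larger log2 fold change.

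Egr3 showed the largest difference of the 5. It was listed at 2.31, 2.61 and 2.84 TPM in WT and at 8.10, 8.02 and 8.93 TPM in GPR174-KO. These levels rest on 90 to 112 expected counts per WT library and 299 to 327 per GPR174-KO library. The log2 fold change was 1.29 ± 0.08, or 2.44-fold, and 1.78% of genes had a larger one.

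Egr2, which is also the master factor of myelinating Schwann cells, differed less. Its values were 2.54, 3 and 3.14 TPM in WT and 5.48, 5.87 and 6.64 TPM in GPR174-KO, from 69 to 86 and 145 to 166 expected counts. The log2 fold change was 0.64 ± 0.10, or 1.56-fold, and 10.3% of genes had a larger one. Schwann cell markers were mostly not called. Of 8 tested, 0 were called higher and 1 lower, 0 were higher at an unadjusted p under 0.05 or by DESeq2, and 1 was called higher under total counts. Their summed level was 124 to 156 CPM in WT and 115 to 139 CPM in GPR174-KO, and their part in the Egr2 value was not tested.

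Egr4, the last family member, was at 0 expected counts in all WT libraries and at 3, 3 and 1 in GPR174-KO. Both groups lay at or under the floor of 3 counts, so no fold was given.

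**Figure D1:**
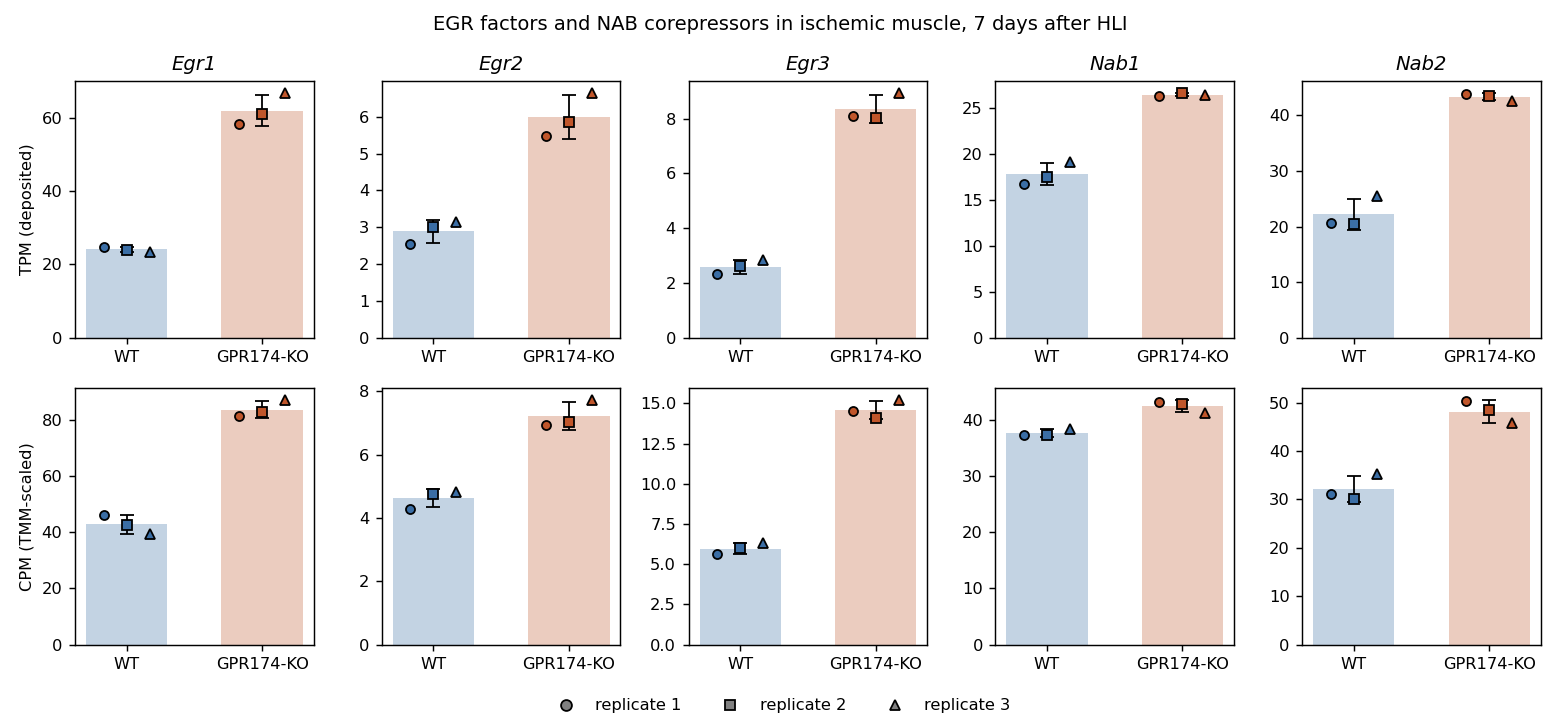
Levels of Egr1, Egr2, Egr3, Nab1 and Nab2 in each library, in TPM as deposited (upper row) and in TMM-scaled CPM (lower row), with bars at the group mean, error bars of 1 SD and symbols for replicates 1 to 3. GPR174-KO libraries lay above WT libraries in every panel, from 2.59 against 8.35 TPM for Egr3, the largest fold, to 37.6 against 42.4 CPM for Nab1, the smallest.

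Nab2, which is itself induced after EGR factors in many cells, stood at 20.6, 20.5 and 25.4 TPM in WT and at 43.9, 43.5 and 42.7 TPM in GPR174-KO. WT replicate 3 was the highest of its group and still lay below every GPR174-KO library. The log2 fold change was 0.58 ± 0.08, and 12.1% of genes had a larger one. In GENCODE M21, on build GRCm38, exons of genes on the opposite strand cover part of Nab2: Gm16229 shares 1050 of its 2941 exonic bases (35.7%), Nemp1 151 and Stat6 40. The sources used here do not say that counting used the strand, so reads of these genes and of Nab2 may not be told apart. Stat6 had a log2 fold change of 0.11 ± 0.05 and Nemp1 of 0.11 ± 0.07, and neither was called (adjusted p = 0.074 and 0.23). For both, every GPR174-KO library still lay above every WT library, as for 33.1% of all genes. Under total counts they stood at 0.38 and 0.39, where the median gene stood at 0.28. The level of Gm16229 was not examined, and the part of these genes in the Nab2 value was not tested.

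Nab1, the corepressor that most cells express more steadily, stood at 16.8, 17.6 and 19.1 TPM in WT and at 26.4, 26.7 and 26.5 TPM in GPR174-KO. On the TMM scale the gap was small, with 37.3, 37.2 and 38.4 CPM in WT and 43.2, 42.8 and 41.2 CPM in GPR174-KO. The log2 fold change of 0.17 ± 0.05 was 1.13-fold, and 34.1% of genes had a larger one. Total-count scaling put it at 0.44, where the median gene stood at 0.28. Its call was lost by DESeq2 and without WT replicate 2, GPR174-KO replicate 1 or GPR174-KO replicate 2, each with a log2 fold change between 0.16 and 0.17.

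The order of levels in TPM changed between the groups. In WT, Egr1 and Nab2 overlapped in range at the top, Nab1 lay below both in every library, and Egr2 and Egr3 overlapped at the bottom. In GPR174-KO no neighbours overlapped, and the order was Egr1, Nab2, Nab1, Egr3 and Egr2. In TPM Egr3 was thus below Egr2 in each WT library and above it in each GPR174-KO library. In expected counts Egr3 was above Egr2 in every library, at 90, 101 and 112 against 69, 80 and 86 in WT. The switch therefore rests on the length correction, and the transcript shares of Egr3 were unstable, as given below. Egr1 still made up much the same share of the summed EGR level, 81.5% ± 2.03 in WT and 81.2% ± 0.198 in GPR174-KO, with overlapping groups.

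Within WT, Egr1 differed from the other genes in which library was high. WT replicate 3 had the lowest Egr1 on both scales and the highest Egr2, Egr3, Nab1 and Nab2. The same library had the lowest mature fibre score of its group, the mean log2 CPM of 22 fibre genes, at 11.64 against 12.20 and 12.01. The GPR174-KO libraries scored 10.51, 10.48 and 10.40, below every WT library.

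Corepressor and factor levels did not move in proportion. The sum of Nab1 and Nab2 went from 37.4, 38.1 and 44.5 TPM in WT to 70.3, 70.2 and 69.1 TPM in GPR174-KO. The sum of Egr1, Egr2 and Egr3 went from 29.7, 29.5 and 29.5 TPM to 71.9, 74.9 and 82.3 TPM. NAB transcripts therefore outnumbered EGR transcripts in each WT library, at a ratio of 1.26, 1.29 and 1.51, and were outnumbered in each GPR174-KO library, at 0.978, 0.937 and 0.840. The mean ratio was 1.35 ± 0.136 in WT and 0.918 ± 0.071 in GPR174-KO, a log2 difference of -0.56. A ratio within a library does not depend on how libraries are scaled. The log2 difference lay between -0.61 and -0.48 by FPKM, by expected counts and without each library in turn.

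The corepressors shifted against each other too. Nab2 to Nab1 was 1.23, 1.17 and 1.33 in WT and 1.66, 1.63 and 1.61 in GPR174-KO. Nab1 to Egr1 went from 0.741 ± 0.069 to 0.429 ± 0.029, while Nab2 to Egr1 went from 0.922 ± 0.137 to 0.702 ± 0.058. Among the factors, Egr3 to Egr1 was 0.108 ± 0.014 in WT and 0.135 ± 0.004 in GPR174-KO, and Egr2 to Egr1 was 0.120 ± 0.016 and 0.097 ± 0.003. None of these ratios overlapped between the groups. All of them are made of genes chosen with the contrast known and carry no test.

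**Figure D2:**
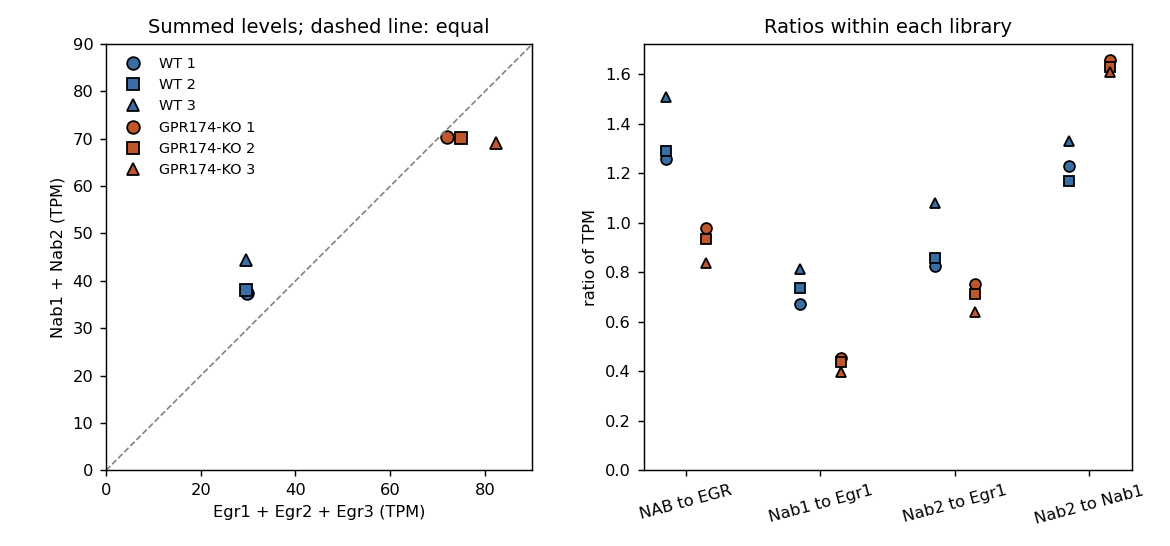
Left, summed Nab1 and Nab2 against summed Egr1, Egr2 and Egr3 in each library in TPM, with a dashed line where both are equal. Right, ratios of TPM within each library. WT libraries lay above the line with NAB to EGR ratios of 1.26 to 1.51, and GPR174-KO libraries below it with 0.840 to 0.978.

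Settings moved the sizes but not the signs of the 5 log2 fold changes. Over the alternatives other than a fibre covariate they ranged from 0.92 to 1.25 for Egr1, 0.59 to 0.91 for Egr2, 1.10 to 1.56 for Egr3, 0.16 to 0.45 for Nab1 and 0.53 to 0.85 for Nab2. With replicates 1 and 3 of each group only, the log2 fold changes were 0.97, 0.68, 1.32, 0.16 and 0.53, and edgeR called 0 of the 5. It also called 0 of all genes there, with 4 of the 5 and 5026 of all genes at an unadjusted p under 0.05. With the fibre score added to the model, Egr1 was at 1.45 and still called, whereas Egr3 at 0.82, Egr2 at 0.15, Nab2 at 0.14 and Nab1 at 0.09 were not. That score splits the groups almost as genotype does, so the 2 terms can hardly be told apart in 6 libraries.

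**Figure D3:**
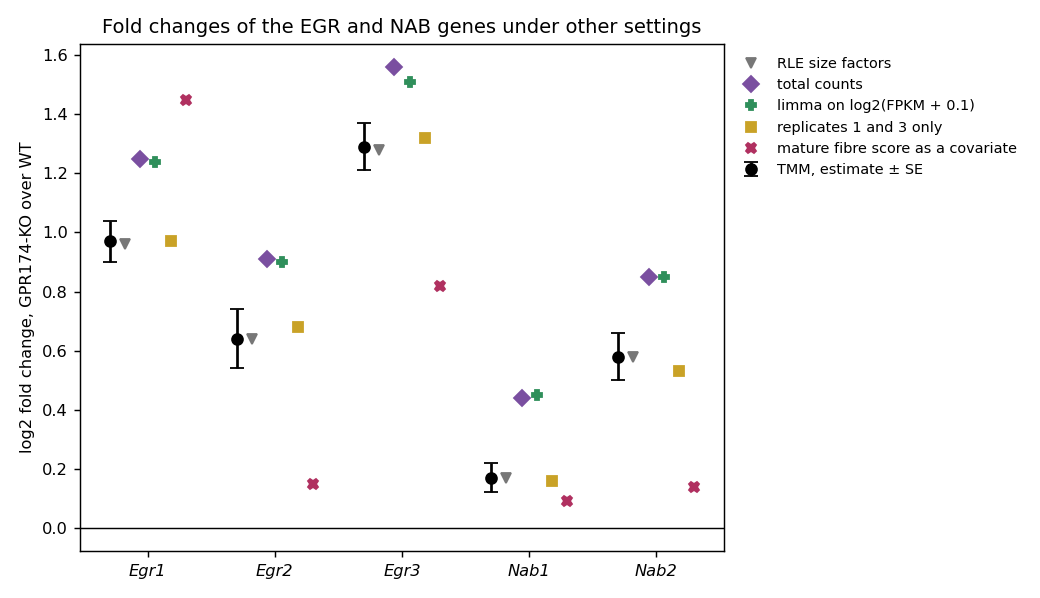
Log2 fold change of each gene in GPR174-KO over WT, as the TMM estimate with its SE (black) and under 5 other settings. All points lie above 0, and the fibre covariate moved Egr1 up to 1.45 and the other 4 genes down, to between 0.09 and 0.82.

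Cell type markers moved with the groups, and their part in the EGR and NAB values was not tested. All 22 mature fibre markers were called lower (median log2 fold change -1.44), beside 27.6% of all genes. Their sum went from 149333 to 216512 CPM in WT to 66839 to 74499 CPM in GPR174-KO. Macrophage markers were called higher in 7 of 8 and regenerating fibre markers in 8 of 11, beside 27.0% of all genes. The summed macrophage level went from 1090 to 1581 CPM in WT to 2582 to 2608 CPM in GPR174-KO. Endothelial markers were called lower in 9 of 10, while Vwf, named after its value was seen, was called higher (0.38 ± 0.05). Fibroblast markers split evenly, with 3 called higher and 3 lower. Of 9 neutrophil markers 2 could be tested, with 1 higher and 1 lower, at summed levels of 22.3 to 29.3 and 32.5 to 35.5 CPM. T cell markers were scarce, at a summed 14.6 to 25.5 CPM in WT and 24.6 to 26.5 CPM in GPR174-KO. Of 6 tested 0 were called, 1 passed an unadjusted p under 0.05, DESeq2 called 0 and total counts 2. No marker of any list was at 0 in all 6 libraries. The neutrophil genes Ly6g and Ngp were at 0 in all WT libraries.

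At the transcript level, RefSeq lists 1 transcript for Egr1, 5 for Egr2, 4 for Egr3, 4 for Nab1 and 2 for Nab2. Of the 13 transcripts with a mean share of at least 5% of their gene's expected counts, 1 did not overlap between the groups. This was Egr3 NM_018781.4, which took 61.1%, 19.5% and 32.5% of Egr3 in WT and 64.9%, 85.5% and 100% in GPR174-KO. A 2-sided exact permutation test gave p = 0.1, the smallest that 3 against 3 libraries allow, and an adjusted value of 0.65 over the 13 transcripts. The estimates for Egr3 were unstable, since NM_001289925.2 took 67.5% in WT replicate 3 and 0 in all other libraries. Nab2 NM_008668.2 was steadier, at 69.7% to 90.9% in WT and 79.0% to 84.1% in GPR174-KO. The other 12 transcripts gave p between 0.2 and 1, and 2 Egr2 transcripts had identical values in every library.

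**Figure D4:**
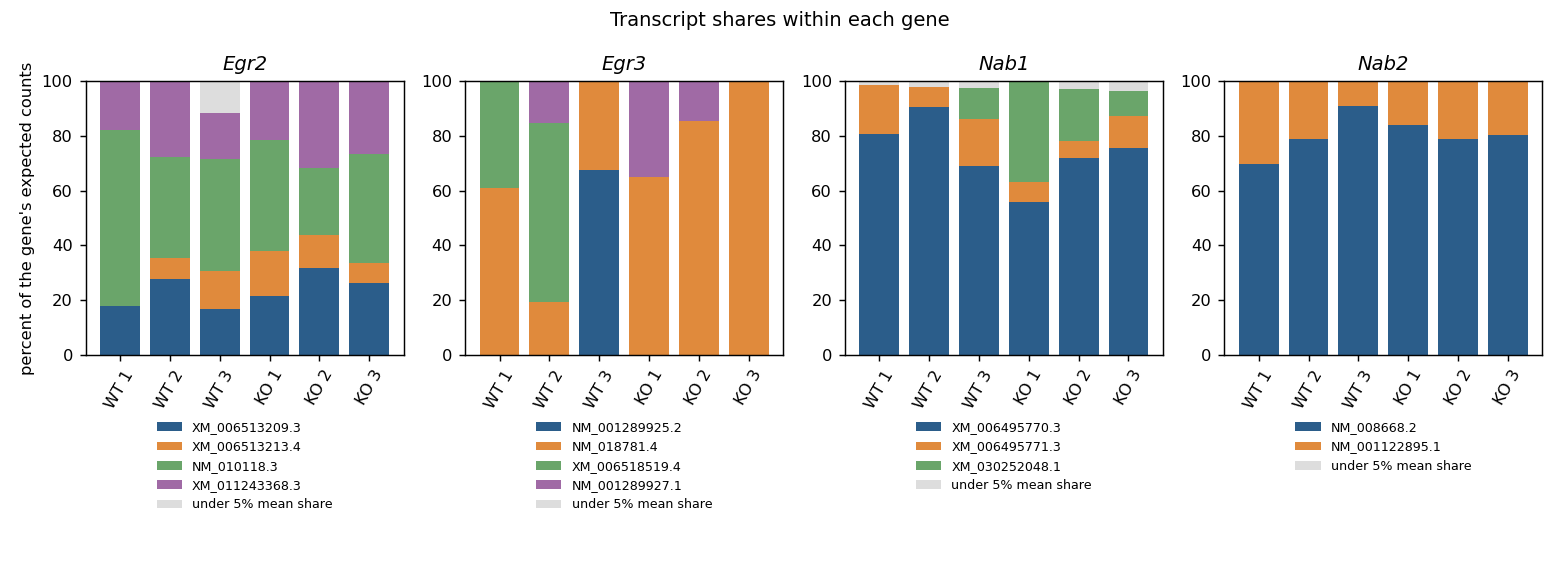
Share of each gene's expected counts (percent) assigned to each RefSeq transcript, by library, for Egr2, Egr3, Nab1 and Nab2. The Egr3 panel shows shares that jump between 0 and 67.5% among WT libraries, and the main Nab2 transcript held 69.7% to 90.9% throughout.

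The genes around the factors were taken from 9 lists holding 146 genes, of which 142 were tested, 57 called higher and 32 lower. Upstream, the cAMP and PKA list, the arm by which GPR174 signals through Gs, held more genes lower than higher, with 10 of 21 called lower and 6 higher (background 27.6% lower and 27.0% higher; total counts 7 and 11). Its median log2 fold change was -0.04, and 0.23 under total counts. Pde4a and Pde4d, phosphodiesterases that degrade cAMP, fell from 66.0 to 32.4 CPM and from 84.5 to 41.7 CPM (log2 fold changes -1.02 ± 0.21 and -1.02 ± 0.13, adjusted p = 0.0073 and 0.0016). Adcy7, an adenylyl cyclase, rose from 63.6 to 120 CPM (0.91 ± 0.17, adjusted p = 0.0048), and Prkar2b, a regulatory subunit of PKA, from 10.8 to 20 CPM (0.89 ± 0.17, adjusted p = 0.0051). With the fibre score in the model, Pde4a was called higher (1.44, adjusted p = 0.010) and Adcy7 lower (-0.94, adjusted p = 0.045).

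Of 21 genes of the ERK cascade and its feedback inhibitors, 7 were called higher (33.3%) and 8 lower (38.1%), beside 27.0% and 27.6% of all genes. The median was -0.09, and total counts called 10 and 2. Dusp2 and Dusp4, phosphatases that switch off nuclear ERK, rose by 1.10 ± 0.20 and 0.85 ± 0.12 on the log2 scale (adjusted p = 0.0045 and 0.0018). Dusp1, the stress-induced phosphatase of the same family, went the other way, from 103, 104 and 97.2 CPM in WT to 63.5, 57.8 and 51.5 CPM in GPR174-KO (-0.82 ± 0.08, adjusted p = 0.00087). Hras, an upstream GTPase, was also lower (-0.52 ± 0.08, adjusted p = 0.0021).

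SRF and its cofactors were mostly not called, with 1 of 8 higher and 1 lower (12.5% each, against 27.0% and 27.6% of all genes), or 5 and 0 under total counts. Srf itself, named here after its value was seen, was at 135 CPM in WT and 121 CPM in GPR174-KO (-0.16 ± 0.08). Mrtfb, an actin-sensing SRF coactivator, was lower by TMM (-0.27 ± 0.09, adjusted p = 0.040), but its sign flipped under total counts, to 0.01, and its call was lost without any single library other than WT replicate 3. The gene called higher was Myocd, the smooth muscle and cardiac coactivator, named after its value was seen, at 0.435 CPM in WT and 1.01 CPM in GPR174-KO.

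Among NuRD subunits, the complex that NAB proteins recruit, 6 of 13 were called higher (46.2%, against 27.0% of all genes) and 0 lower, with 0 lower also at an unadjusted p under 0.05 and by DESeq2. The median was 0.10. Total counts called all 13 higher with a median of 0.37, but on that scale 7303 of the 14395 genes were called higher and the median gene stood at 0.28. Chd3, a remodelling ATPase of the complex, stood at 72.6, 76.7 and 80.6 CPM in WT and 121, 122 and 118 CPM in GPR174-KO (0.65 ± 0.06, adjusted p = 0.00068). Gatad2a, a scaffold subunit, rose by 0.31 ± 0.05 (adjusted p = 0.0029).

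Downstream, 16 of 25 reported EGR target genes were called higher and 3 lower, or 64% against 27.0% of all genes and 12% against 27.6%. Their median log2 fold change was 0.44, beside 0.00 over all genes, and 0.71 beside 0.28 under total counts. Many of these genes are also expressed by macrophages and fibroblasts, whose markers are given above, and the list was chosen with earlier results known. Thbs1, the antiangiogenic matrix protein thrombospondin 1, rose from 159 to 398 CPM (1.33 ± 0.24, adjusted p = 0.0045).

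The 3 targets called lower were Vegfa, Rcan1 and Flt1. Vegfa, the main angiogenic ligand, stood at 204, 186 and 157 CPM in WT and 86.7, 80.8 and 73.7 CPM in GPR174-KO (-1.18 ± 0.11, adjusted p = 0.00078). Rcan1, a calcineurin inhibitor, fell from 167 to 78.9 CPM (-1.08 ± 0.23, adjusted p = 0.0076). Flt1, a VEGF receptor named after its value was seen, had a log2 fold change of -0.68 ± 0.10. The summed level of the endothelial markers fell in the same libraries, from 1068 to 1273 CPM in WT to 683 to 771 CPM in GPR174-KO, although Vwf among them was higher. The study reported the opposite direction for Vegf, by RT-qPCR in ischemic muscle of knockout mice on the same day, and more VEGF protein in serum. It also reported a higher vascular density by staining of the same muscle on that day. Why these reports differ from the values here was not tested.

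Areg itself was near the limit of detection, with 2 expected counts in each WT library and 5, 5 and 7 in GPR174-KO. It did not pass the low-count filter, and without the filter its difference was not called by edgeR (adjusted p = 0.13). The study reported Areg as increased in this RNA sequencing, where it used DEGseq. It also reported the increase by RT-qPCR in muscle, as protein in serum and in regulatory T cells sorted from muscle. Gpr174, the deleted gene, was at 8, 2 and 5 expected counts in WT and at 1, 0 and 0 in GPR174-KO (adjusted p = 0.018 without the filter). Both genes therefore give counts too low to be set against the EGR factors library by library.

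T cell genes controlled by EGR2 and EGR3 were called higher in 5 of 10 tested (50%, against 27.0% of all genes) and lower in 1 (10% against 27.6%), or in 6 and 0 under total counts. The 5 were Socs3, Cdkn1a, Socs1, Cblb and Itch, all of which other cells of muscle also use. Socs1, Cblb and Itch are named after their values were seen. Socs3, a cytokine signalling inhibitor, rose from 13.7 to 44.2 CPM (1.69 ± 0.18, adjusted p = 0.0010), and Cdkn1a, the cell cycle inhibitor p21, from 176 to 342 CPM (0.95 ± 0.18, adjusted p = 0.0048). The gene called lower was Dgka, a diacylglycerol kinase that dampens T cell receptor signals, at -0.30 ± 0.06 (adjusted p = 0.0057), a call lost under total counts at -0.02.

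Muscle spindle genes, the EGR3 list, were called higher in 4 of 10 (40%, against 27.0% of all genes) and lower in 1 (10% against 27.6%), or in 7 and 0 under total counts. Nrg1, the neuregulin that induces spindles and also supports Schwann cells, stood at 0.498, 1.19 and 2.64 CPM in WT and 7.26, 7.44 and 8.65 CPM in GPR174-KO (2.40 ± 0.39, adjusted p = 0.0030). WT replicate 3 made this difference smaller, since the log2 fold change was 3.19 without it. The sign for Nrg1 turned with the fibre score in the model (-2.62, adjusted p = 0.096). Its receptor subunit gene Erbb3 rose from 17.1 to 37.1 CPM (1.11 ± 0.10, adjusted p = 0.00072). The gene called lower was Etv4, an ETS factor, at -0.51 ± 0.16 (adjusted p = 0.031), and its call was lost under total counts and without WT replicate 1 or 2 or any of the 3 GPR174-KO libraries.

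Tendon genes, the EGR1 and EGR2 list, moved in both directions, with 5 of 10 higher (50%, against 27.0% of all genes) and 4 lower (40% against 27.6%). Those called higher were Bgn, Col14a1, Thbs4, Tgfb2 and Scx, and those called lower Kera, Tnmd, Fmod and Mkx, of which 5 are named after their values were seen. The tendon factors Scx (0.24 ± 0.06) and Mkx (-0.46 ± 0.12) went opposite ways. Bgn and Col14a1, matrix genes, rose by 1.04 ± 0.23 and 0.62 ± 0.09 (adjusted p = 0.0091 and 0.0022). Kera and Tnmd, a corneal and tendon proteoglycan and a tendon membrane protein, fell by 1.91 and 0.92 on the log2 scale (adjusted p = 0.0015 and 0.00041). Tnmd was steady within groups, at 40.2, 39.5 and 40.6 CPM in WT and 19.9, 21.4 and 22.3 CPM in GPR174-KO.

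The other immediate early genes, which share the inducers of the EGR factors, were called in both directions. Of 24, 7 were called higher (29.2%, against 27.0% of all genes) and 4 lower (16.7% against 27.6%), with a median of 0.19 (16 and 3 under total counts). Junb, an AP-1 subunit, rose from 40.4 to 96.5 CPM (1.26 ± 0.19, adjusted p = 0.0022), and Ier3, a stress response gene, from 9.80 to 23.5 CPM (1.26 ± 0.15, adjusted p = 0.0012). Nr4a1, an orphan nuclear receptor, fell from 138 to 63.5 CPM (-1.12 ± 0.27, adjusted p = 0.013), a call lost without GPR174-KO replicate 3 and turned with the fibre score in the model (2.06, adjusted p = 0.0096). Klf4, a Krüppel-like factor of vessel and epithelium, stood at 45.5, 44.8 and 43.4 CPM in WT and 24.6, 22.7 and 20.9 CPM in GPR174-KO (-0.97 ± 0.07, adjusted p = 0.00048). The other genes called higher were Fosl1, Fos, Myc, Fosl2 and Zfp36, and the others called lower were Klf2 and Btg2. All of these others are named after their values were seen. DESeq2 called 10 of the list higher and 4 lower.

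**Figure D5:**
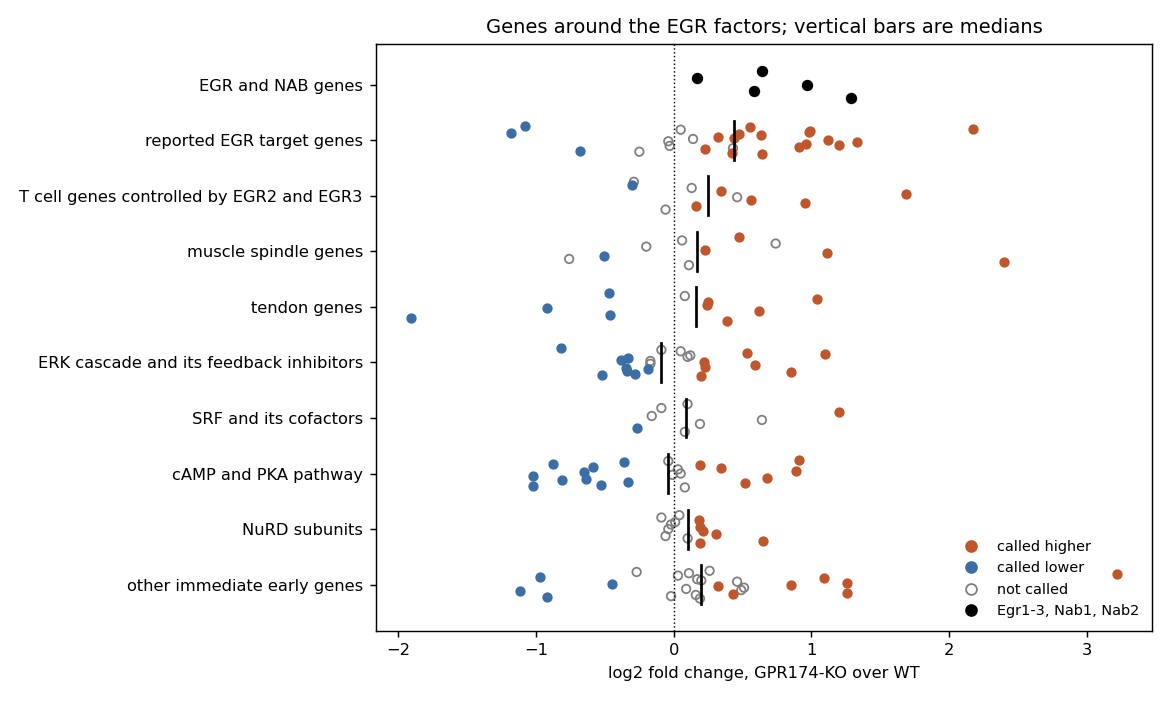
Log2 fold change in GPR174-KO over WT of Egr1, Egr2, Egr3, Nab1 and Nab2 (black, chosen with this contrast known) and of each tested gene of the 9 lists, with genes called higher in orange, called lower in blue and not called as open circles, and a bar at each list's median. The reported EGR target genes have the highest median, 0.44, and the cAMP and ERK lists have medians of -0.04 and -0.09.

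The genes most like each member over the 6 libraries were found by Pearson's r of log2 CPM among 9972 genes. These r mostly reflect the gap between 2 groups of 3 and are a description only. For Egr1 they were Utp15, Atp6v0d2 and Hmgb1 (r = 0.9994, 0.9990 and 0.9983), and 447 genes (4.48%) had an r over 0.95. For Egr2 they included Ccar1 and Plcb3, and they were for Egr3 Ncaph, Mapk1ip1l and Sptan1, for Nab1 Pdk3, Fasn and Zrsr2, and for Nab2 Selenoi, Ssbp4 and Kdm5c, all these with r of at least 0.9984. Between 1232 and 1466 genes, or 12.4% to 14.7%, had an r over 0.95 with each of these 4. No member was among the 3 genes most like another member, but Egr2 averaged under 10 CPM and so could not be listed.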

How the data were processed

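RNA of ischemic gastrocnemius muscle was sequenced by BGI on the BGISEQ-500, in 3 WT and 3 GPR174-KO libraries. The submitters' processing notes name HISAT2 2.0.4, Bowtie2 2.2.5, RSEM 1.2.12 and build GRCm39, with no role or order. The authors deposited expected counts, FPKM and TPM for 58843 RefSeq transcripts per library. The strand setting is not given in the sources used here. Deposited group averages were not used.

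The deposited values were summed per gene (18089 genes, 99.7% with a symbol from RefSeq). Expected counts were rounded and tested with edgeR 4.0.16 (TMM, filterByExpr, robust quasi-likelihood F-test, Benjamini-Hochberg over 14395 genes) on genotype in all 6 libraries. The study used DEGseq at q under 0.05 and a log2 fold change over 1. edgeR was used here because it takes the spread between libraries into account. The labels list the libraries as samples without naming animals or cultures, so p-values measure the spread between these samples. SE was the log2 fold change divided by the root of F. Alternatives were RLE factors, total counts, DESeq2 1.42.0, limma 3.58.1 on log2 FPKM with pseudocounts of 1 and 0.1 (FPKM of 1 or more in 3 libraries), other count filters, a replicate block, a fibre covariate and leaving out libraries. The scripts were tested on simulated data. The count of 3 used as floor covers counting error only.

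The members and lists were chosen with earlier results of these data known. Named genes were the members, Egr4, Gpr174, Areg and, from each list, up to 2 called genes with the largest increase and 2 with the largest decrease, among genes averaging 1 CPM or more whose groups did not overlap, and the 3 genes of at least 10 CPM most like each member. 2 genes that this rule picks are not reported here. Stat6, Nemp1 and Gm16229 are named because their exons overlap those of Nab2. The neutrophil markers Ly6g and Ngp are named after their values were seen. Others are marked in the text as named after their values were seen.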

Additional observations from a re-analysis of the deposited data

How the results depend on the processing

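All 5 members kept a positive log2 fold change under every setting, and the NAB to EGR ratio (without each library in turn -0.61 to -0.48) and the count of 1 non-overlapping transcript moved by less than the spread or not at all. Total-count scaling, which moves the median gene to 0.28, called 94 list genes higher and 18 lower, and 7303 and 2010 of all genes. limma on log2(FPKM + 1) called 91 and 18 list genes and 6817 and 1823 of all genes, and on log2(FPKM + 0.1) 91 and 18, and 6798 and 1816. With replicates 1 and 3 only, edgeR called 0 members, 0 list genes and 0 genes in either direction, with 57 list genes and 5026 genes at an unadjusted p under 0.05. This fit has fewer libraries. With the fibre score added to the model it called 1 member, 3 list genes higher and 3 lower, and 199 and 427 of all genes.

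Leaving out 1 library gave 4 to 5 members, 34 to 68 list genes higher, 25 to 36 lower, and 2651 to 4626 and 2806 to 4539 of all genes. The list count fell to 35 without WT replicate 2 and to 34 without GPR174-KO replicate 2. The correlations of deviations between same-numbered libraries were 0.008, 0.050 and 0.005 over 9972 genes. They gave no sign that the numbers pair the libraries, but with so few libraries they cannot exclude it. A replicate block called 4 members, all but Nab1, 44 list genes higher and 31 lower, and 3305 and 3507 of all genes.

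Under the fibre covariate Pde4a (1.44) and Nr4a1 (2.06) were called higher and Adcy7 (-0.94) lower, against their main calls. The sign turned without a call for Thbs1 (-1.26), Socs3 (-0.31), Cdkn1a (-0.90), Etv4 (1.11), Nrg1 (-2.62), Kera (0.40), Bgn (-1.28), Col14a1 (-0.15), Dusp2 (-0.56), Mrtfb (0.63), Pde4d (0.39), Prkar2b (-0.83) and Junb (-0.63). Among genes named after their values were seen, it also turned for Flt1 (0.25), Socs1 (-1.17), Itch (-0.04), Thbs4 (-0.71), Fmod (0.14), Fos (-0.42) and Zfp36 (-0.53). Whether this fit called any of these later genes is not given here. Mrtfb also turned under total counts (0.01) and limma (0.00 with both pseudocounts). The cause was not tested. Depth limits Egr4, Areg and Gpr174, which lie near the floor of 3 counts.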
